A study of Mus musculus with 10 samples.

Results

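Semaphorins, plexins and neuropilins, the ligands and receptors of one axon guidance system, were followed in the cortex of mouse embryos that lack 1 or both working copies of Gatad2b. The 31 genes were taken by symbol from the 31053 genes of the count matrices: every Sema3 to Sema7, Plxna, Plxnb, Plxnc and Plxnd gene, plus Nrp1 and Nrp2. They comprise 20 semaphorins, 9 plexins and 2 neuropilins, and the rule used no measured value. Single-cell RNA-seq libraries, 1 per embryo, were made from cortex at stage E16.5. The 3 genotypes were WT (3 embryos), Het (4 embryos, Gatad2b stop/+) and KO (3 embryos, Gatad2b stop/stop). The stop allele is a germline insertion of a trapping cassette in an intron of Gatad2b, present in every cell of a carrier. Gatad2b encodes a subunit of the NuRD chromatin remodelling complex, and the comparisons ask how its dosage changes expression in each kind of cortical cell. The labels do not say which embryos were littermates, and p-values measure the spread between embryos.

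Semaphorins are signals that steer growing axons and migrating neurons. Class 3 semaphorins are secreted, classes 4 to 6 span the membrane and class 7 is held on the cell surface by a lipid anchor. Plexins are their signalling receptors. Most class 3 semaphorins bind a neuropilin, which has no signalling domain of its own and pairs with an A-type plexin, whereas Sema3e binds Plxnd1 directly and class 6 semaphorins bind A-type plexins. In the developing cortex, Sema3a acts on axons and on the radial migration of neurons, Sema3c on callosal axons, and Sema6a and Plxna4 on tract formation.

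The 10 libraries held 80071 cell barcodes, of which 65779 cells with at least 1000 UMIs (unique molecular identifiers, 1 per captured mRNA molecule) and at most 10% mitochondrial UMIs were kept. Each embryo gave 5147 to 8103 cells, 82872641 to 123737385 UMIs and a median of 10795 to 17077.5 UMIs per cell. Each pair of embryos shared 4 to 19 cell barcodes, at most 0.325% of the smaller library. The cells formed 26 clusters built without the 31 genes, and 12 classes were named from marker genes. Clusters that met no naming rule held 8053 cells. Het 3 stood apart in 1 class, with 340 of the 601 endothelial-like cells, and that class was left out of the tests. The library names carried 1 of 2 prefixes whose meaning the labels do not give. All KO embryos and Het 1 to Het 3 carried one prefix, and all WT embryos and Het 4 the other, so in KO vs WT the prefix and the genotype cannot be told apart. A fit with the prefix as a covariate separates them only through Het 4 against Het 1 to Het 3, so each value from it below rests on the single library of Het 4. The libraries differed with the prefix in other ways. The median share of mitochondrial UMIs per cell was 3.60 to 3.97% in the WT embryos and Het 4, and 4.31 to 4.66% in the KO embryos and Het 1 to Het 3, and the barcodes numbered 9271 to 10386 and 5996 to 7510. Of the unnamed clusters, which enter the sums over all cells, cluster 13 had 258 to 368 cells in the former embryos and 32 to 121 in the latter, and cluster 12 had 284 to 346 and 89 to 199. Both were shallow, with a median of 1532 UMIs per cell in cluster 13 and 2523 in cluster 12. The part of these differences in the results was not tested. Values are UMIs of a gene per 1000000 UMIs (CPM), from UMIs summed per embryo, and are scaled by edgeR's TMM factors except where levels in WT classes are compared with each other. In sums over all cells, fewer cells of a type and less RNA per cell cannot be told apart.

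Gatad2b itself followed the labels in every embryo. It stood at 139, 131 and 133 CPM in WT, 94.2, 89.8, 89.96 and 95.7 CPM in Het and 50.9, 52.8 and 57.3 CPM in KO embryos. The 3 groups did not overlap, and the log2 fold change against WT was -0.54 for Het and -1.32 for KO embryos. The UMIs come from the 3′ end of the mRNA, beyond the cassette, so the values count transcript downstream of it, which was lower in steps and not absent.

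In WT cortex each named class but the ganglionic eminence-like and erythroid-like classes held the highest level of at least 1 member. The WT levels compared between classes here are CPM without the TMM factor, as mean ± SD of the 3 WT embryos. They can differ from the scaled values given later, most in the erythroid-like class, where Nrp1 has a mean of 15.6 CPM unscaled and 9.73 CPM scaled. The subventricular zone-like class takes its name from the intermediate progenitors of excitatory neurons. Cluster 21, 29.5% of it in WT, had only 1 of its markers among 10 leading genes. Among the ligands, Sema3c reached 142 ± 12.9 CPM in subventricular zone-like cells, against 87.8 ± 19.5 CPM in layer V-VI-like neurons, the next class. Sema5a was also highest in the subventricular zone-like class, at 135 ± 0.742 CPM against 52.3 ± 1.04 CPM in radial glia-like cells. For neither gene did the embryos of these classes overlap. Sema5b and Sema3d were highest in radial glia-like cells, at 43.1 ± 0.899 and 2.96 ± 0.278 CPM. Sema6a peaked at 209 ± 16.2 CPM in Cajal-Retzius-like cells, the pioneer neurons under the brain surface, and overlapped there with the endothelial-like class (172 ± 75.3 CPM). Sema6d stood at 405 ± 49.9 CPM in the mural and fibroblast-like class, above every other class without overlap with the second (216 ± 119.9 CPM, endothelial-like). Sema3e, at 6.83 ± 0.822 CPM in layer V-VI-like neurons, overlapped with the ganglionic eminence-like class (5.75 ± 1.1 CPM). Sema3a was highest in interneuron-like cells (42.2 ± 5.77 CPM) and overlapped with the subventricular zone-like class (37.3 ± 5.62 CPM).

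Among the receptors, Plxna4 was the only member highest in layer II-IV-like neurons, the late-born callosal neurons of the upper cortex. It stood at 438 ± 15.2 CPM there and at 139 ± 14.8 CPM in the next class, with no overlap, and at 57.1 ± 5.58 CPM in layer V-VI-like neurons. Both neuropilins were highest in layer V-VI-like neurons, Nrp1 at 409.7 ± 102 CPM and Nrp2 at 151 ± 55.9 CPM, and both overlapped with the second class. Nrp1 was nearly as abundant in layer II-IV-like neurons (327 ± 43.3 CPM). Plxnb2 was highest in microglia-like cells, at 104 ± 19.4 CPM, and Plxnd1, the receptor of endothelium and of Sema3e, in the mural and fibroblast-like class at 183 ± 46.4 CPM, where it overlapped with the endothelial-like class (162 ± 85.7 CPM). The mural and fibroblast-like class also held endothelial markers, at a summed 6872 to 7039.6 CPM in WT beside 5501 to 6705 CPM of its own. The erythroid-like class, which should lack the family, had the lowest level of all classes, ties at 0 included, for 28 of the 31 members, with 15.5 ± 11.6 CPM of Plxna4 and 1.17 ± 0.657 CPM of Sema5a. Erythroid markers took 83.9 to 87.6% of the UMIs of this class in WT embryos, which lowers the CPM of every other gene in it. Its low rank therefore cannot show by itself that the family is absent there.

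These levels depend on how the cells are clustered. The highest class changed for 8 of the 31 members at resolution 0.8, for 8 without integration and for 2 with doublets removed. At resolution 0.8 the 8 were Nrp1, Nrp2, Plxnb2, Plxnb3, Plxnd1, Sema3b, Sema3d and Sema4a. Without integration they were Plxna1, Plxna2, Plxnb2, Plxnc1, Plxnd1, Sema3a, Sema3e and Sema4a, and with doublets removed the 2 were Plxnd1 and Sema6a. Plxnb2 was then highest in the mural and fibroblast-like class at resolution 0.8 and without integration. At resolution 0.8 Sema3d was highest in an oligodendrocyte precursor-like class, which the main clustering did not hold. At resolution 0.8 Nrp1 was at 189 ± 42 CPM in layer V-VI-like and 309 ± 42.8 CPM in layer II-IV-like neurons, and Nrp2 at 51.3 ± 20.2 CPM in layer V-VI-like neurons. Plxnd1 was highest in the endothelial-like class under all 3 alternatives, at 231 ± 50.1 CPM against 32.4 ± 11.4 CPM in the mural and fibroblast-like class at resolution 0.8. The highest class of Plxna4, Sema3c, Sema5a, Sema5b and Sema6d was the same under each.

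The share of WT cells with a UMI was also set beside these levels. Plxna4 was detected in 95.8% (6836 of 7133 cells, Wilson interval 95.3 to 96.3%) of layer II-IV-like and in 33.9% (967 of 2852 cells, Wilson interval 32.2 to 35.7%) of layer V-VI-like cells. In erythroid-like cells the share was 6.91% (43 of 622 cells, Wilson interval 5.17 to 9.18%), which serves as the background. Sema5a was detected in 61% (576 of 945 cells, Wilson interval 57.8 to 64%) of subventricular zone-like cells, 10.4% (743 of 7133 cells, Wilson interval 9.73 to 11.1%) of layer II-IV-like cells and 0.965% (6 of 622 cells, Wilson interval 0.443 to 2.09%) of erythroid-like cells. Median depth was 17498.5 UMIs in layer II-IV-like, 21585 in layer V-VI-like, 15519.5 in subventricular zone-like and 9153 in erythroid-like cells. In the erythroid-like class most UMIs came from erythroid markers. The intervals cover counting error only.

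**Figure D1:**
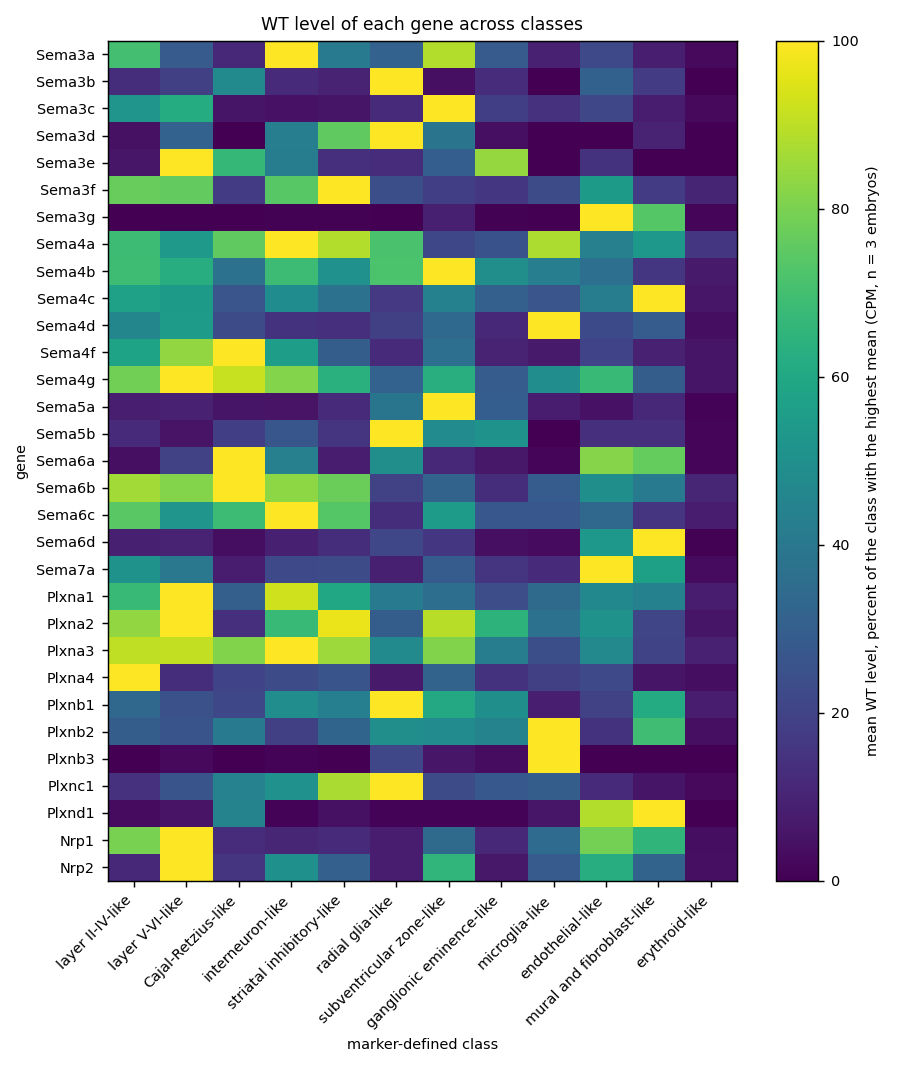
Heat map of the mean WT level (CPM without the TMM factor, 3 embryos) of the 31 genes in 12 classes, each gene shown as a percent of its level in its own highest class. Layer V-VI-like neurons hold the highest level of 6 genes and radial glia-like cells of 5, and Plxna4 is the only gene highest in layer II-IV-like neurons.

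Summed over all cells, 8 of the 31 members were called in KO vs WT, 4 higher and 4 lower. A gene was called where its adjusted p (edgeR's quasi-likelihood test, Benjamini-Hochberg over all genes tested) was under 0.05 and its log2 fold change beyond 0.25 in size. In KO vs WT, 8 of the 30 members tested were called (26.7%), beside 24.3% of all genes, a share near the background. Of the 8, 4 rose (Plxnb2, Sema3c, Sema4d and Sema5b, beside 11.9% of all genes) and 4 fell (Plxna4, Sema3d, Sema3e and Sema7a, beside 12.4%). The median log2 fold change of the members was 0.03, beside -0.01 over all genes. Het vs WT gave 2 calls among the 30 (6.67%, beside 3.18% of all genes), both lower (1.51% of all genes), and KO vs Het gave 3 (10.0%, beside 5.51%), 1 higher (2.53% of all genes) and 2 lower (2.98%). Plxnb3 was too sparse to test. KO vs WT and Het vs WT share the WT embryos, and KO vs WT and KO vs Het share the KO embryos.

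Among the ligands that fell, Sema3e, a repellent of axons and vessels, was lower in KO embryos than in all others. It stood at 2.12, 2.75 and 2.15 CPM in WT, 1.92, 2.21, 3.05 and 1.91 CPM in Het and 1.31, 1.22 and 1.39 CPM in KO embryos. The KO embryos lay below all others, whereas Het and WT overlapped (KO vs WT, log2 fold change -0.84, SE 0.18, adjusted p = 0.0041, and KO vs Het, log2 fold change -0.80, SE 0.17, adjusted p = 0.0154). Sema7a, the lipid-anchored semaphorin, which can promote axon growth through integrins, was lower in both mutant groups. Its values were 18.1, 16.6 and 16 CPM in WT, 13.6, 13.4, 15.3 and 14.3 CPM in Het and 13.2, 14.9 and 13.9 CPM in KO embryos. All 7 mutant embryos lay below all WT embryos (Het vs WT, log2 fold change -0.26, SE 0.06, adjusted p = 0.0393, and KO vs WT, log2 fold change -0.27, SE 0.07, adjusted p = 0.00754). Sema3d was rare, at 0.598, 0.768 and 0.621 CPM in WT, 0.37, 0.262, 0.455 and 0.704 CPM in Het and 0.479, 0.271 and 0.29 CPM in KO embryos. Its fall in KO embryos (log2 fold change -0.92, SE 0.33, adjusted p = 0.0438) was no longer called without Het 3 (-0.92), KO 2 (-0.79), KO 3 (-0.81), WT 1 (-0.99), WT 2 (-0.81) and WT 3 (-0.97), and with the library prefix as a covariate the call was lost and the sign turned (0.03, adjusted p = 0.98). That of Sema7a was lost without KO 1 (-0.23) and WT 1 (-0.23) and with the prefix (-0.25, adjusted p = 0.202), and its fall in Het embryos without Het 1 (-0.25), Het 2 (-0.24), KO 1 (-0.26), KO 3 (-0.27), WT 1 (-0.21), WT 2 (-0.28) and WT 3 (-0.30) and with the prefix (-0.24, adjusted p = 0.357). Leaving out KO 1 or KO 2 ended the KO vs Het call of Sema3e (KO 1 (-0.80) and KO 2 (-0.75)).

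The sequences just before the starts of these 3 ligands are shown because they were the ones called lower over all cells, that of Sema3e alone also with the prefix as a covariate, and differ in CG content, the letters at which DNA is methylated. They are the 250 bases before the RefSeq start on GRCm38.p6, 5′ to 3′ on the plus strand, with CG in capitals. A window was found for 26 of the 31 members and exactly 1 for 18, these 3 among them. The windows hold 4 CG in Sema3d (chr5:12382916-12383165), 7 in Sema3e (chr5:14025026-14025275) and 17 in Sema7a (chr9:57939862-57940111). Over 32851 windows of the same length the median was 6. The share of windows with at least as many CG was 62.2%, 46.3% and 23.5%. The counts describe the letters only.
Sema3d: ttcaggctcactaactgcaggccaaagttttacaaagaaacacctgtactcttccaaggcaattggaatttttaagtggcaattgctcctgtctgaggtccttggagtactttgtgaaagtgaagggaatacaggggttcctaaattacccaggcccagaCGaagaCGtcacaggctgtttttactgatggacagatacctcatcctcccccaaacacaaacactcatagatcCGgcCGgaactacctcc
Sema3e: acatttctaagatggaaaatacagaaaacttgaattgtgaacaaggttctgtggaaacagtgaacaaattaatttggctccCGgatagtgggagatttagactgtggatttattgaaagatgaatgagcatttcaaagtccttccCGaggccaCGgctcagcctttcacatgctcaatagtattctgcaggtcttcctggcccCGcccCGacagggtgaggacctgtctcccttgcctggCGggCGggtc
Sema7a: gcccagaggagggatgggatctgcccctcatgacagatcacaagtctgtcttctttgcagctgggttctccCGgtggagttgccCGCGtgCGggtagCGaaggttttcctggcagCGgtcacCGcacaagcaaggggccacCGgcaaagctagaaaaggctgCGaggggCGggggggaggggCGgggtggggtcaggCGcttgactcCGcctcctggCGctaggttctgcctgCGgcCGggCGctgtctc

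Of these, Sema3d (chr5:12383385-12588948) and Sema3e (chr5:14025276-14256689) lie near each other on chromosome 5, and Sema3a (chr5:13125414-13602565) lies between them and Sema3c (chr5:17574281-17730268) beyond, all on the plus strand of GRCm38 in the GENCODE vM21 annotation. Over all cells Sema3c was called higher, a call lost with the prefix as a covariate like that of Sema3d, and Sema3a gave no call. Sema3a stood at 24.9, 25.1 and 24.2 CPM in WT, 24.9, 23.4, 25 and 25.8 CPM in Het and 22, 22.5 and 24.1 CPM in KO embryos (KO vs WT, log2 fold change -0.11, SE 0.05, adjusted p = 0.0842).

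The ligands that rose were Sema3c, Sema4d and Sema5b. Sema3c stood at 61, 55.8 and 65.1 CPM in WT, 87.8, 72.7, 75.9 and 55.6 CPM in Het and 77.6, 85.3 and 86.5 CPM in KO embryos. The KO embryos lay above the WT embryos. Het 4, which has the library prefix of the WT embryos, lay just below them, and Het 1 to Het 3, with that of the KO embryos, lay above them (KO vs WT, log2 fold change 0.46, SE 0.14, adjusted p = 0.0306). With the prefix as a covariate the change of Sema3c was -0.05, adjusted p = 0.881. Sema4d, a ligand of Plxnb1, stood at 13, 12.5 and 13.1 CPM in WT, 12.8, 12.9, 13 and 13.3 CPM in Het and 15.4, 16 and 14.8 CPM in KO embryos. WT and Het overlapped and KO lay above both (KO vs WT, log2 fold change 0.26, SE 0.05, adjusted p = 0.00128). Sema5b was at 8.89, 8.79 and 8.87 CPM in WT, 8.98, 8.68, 9.05 and 9.49 CPM in Het and 10.4, 11 and 12.3 CPM in KO embryos, with KO again above both other groups (KO vs WT, log2 fold change 0.34, SE 0.07, adjusted p = 0.00213, and KO vs Het, log2 fold change 0.31, SE 0.06, adjusted p = 0.00971). The Sema3c call was lost without Het 2 (0.45), KO 2 (0.43), KO 3 (0.42), WT 1 (0.45) and WT 2 (0.39), that of Sema4d without KO 2 (0.23) and WT 2 (0.23), and that of Sema5b in KO vs Het without KO 3 (0.24).

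Of the receptors, Plxna4 fell in steps with the genotype. It stood at 250.2, 224 and 214 CPM in WT, 189, 191, 195 and 173 CPM in Het and 144, 162 and 164 CPM in KO embryos. The 3 groups did not overlap (Het vs WT, log2 fold change -0.29, SE 0.06, adjusted p = 0.0304, KO vs WT, log2 fold change -0.55, SE 0.07, adjusted p = 0.00013, and KO vs Het, log2 fold change -0.26, SE 0.06, adjusted p = 0.0279). Plxnb2, a receptor of class 4 semaphorins in progenitors and migrating neurons, rose in KO embryos. Its values were 32.7, 31 and 31.3 CPM in WT, 35.2, 35, 33.5 and 32.1 CPM in Het and 39.4, 39.3 and 38.4 CPM in KO embryos, with KO above both other groups (KO vs WT, log2 fold change 0.30, SE 0.04, adjusted p = 0.000305). The KO vs WT calls of both genes were kept whichever embryo was left out. With the library prefix as a covariate that of Plxna4 was kept (-0.70, adjusted p = 0.0042) and that of Plxnb2 lost (0.19, adjusted p = 0.0645). The Het vs WT call of Plxna4 was lost with the prefix (-0.40, adjusted p = 0.119) and without Het 1 (-0.30), Het 2 (-0.31), Het 3 (-0.31), WT 1 (-0.23) and WT 2 (-0.32), and its KO vs Het call without Het 2 (-0.25), Het 3 (-0.24), KO 1 (-0.20), KO 2 (-0.29) and KO 3 (-0.29). Nrp1 (log2 fold change -0.24, SE 0.07, adjusted p = 0.0186) and Plxna2 (log2 fold change 0.21, SE 0.05, adjusted p = 0.00454) passed the test in KO vs WT but were under the fold threshold. The same held for Plxna1 (-0.215, adjusted p = 0.02), Plxna3 (0.18, adjusted p = 0.0104) and Plxnb1 (0.17, adjusted p = 0.0204).

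Some members that moved within classes showed little over all cells. Sema5a stood at 20.5, 20.7 and 20.1 CPM in WT, 29, 18.7, 21.6 and 20.6 CPM in Het and 23.6, 21.4 and 25.1 CPM in KO embryos (KO vs WT, log2 fold change 0.19, SE 0.14, adjusted p = 0.299) and Sema6a at 32.4, 38.2 and 37.7 CPM in WT, 33.8, 38.6, 38.5 and 36.3 CPM in Het and 34.1, 28.1 and 35.5 CPM in KO embryos (log2 fold change -0.15, SE 0.09, adjusted p = 0.233). Sema6d, at 44.7, 45 and 47 CPM in WT, 45.6, 42.8, 46 and 45.3 CPM in Het and 49.3, 50.5 and 54.6 CPM in KO embryos, passed the test but not the fold threshold (log2 fold change 0.17, SE 0.05, adjusted p = 0.0115). The WT and KO embryos overlapped for Sema6a but not for Sema5a or Sema6d.

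**Figure D2:**
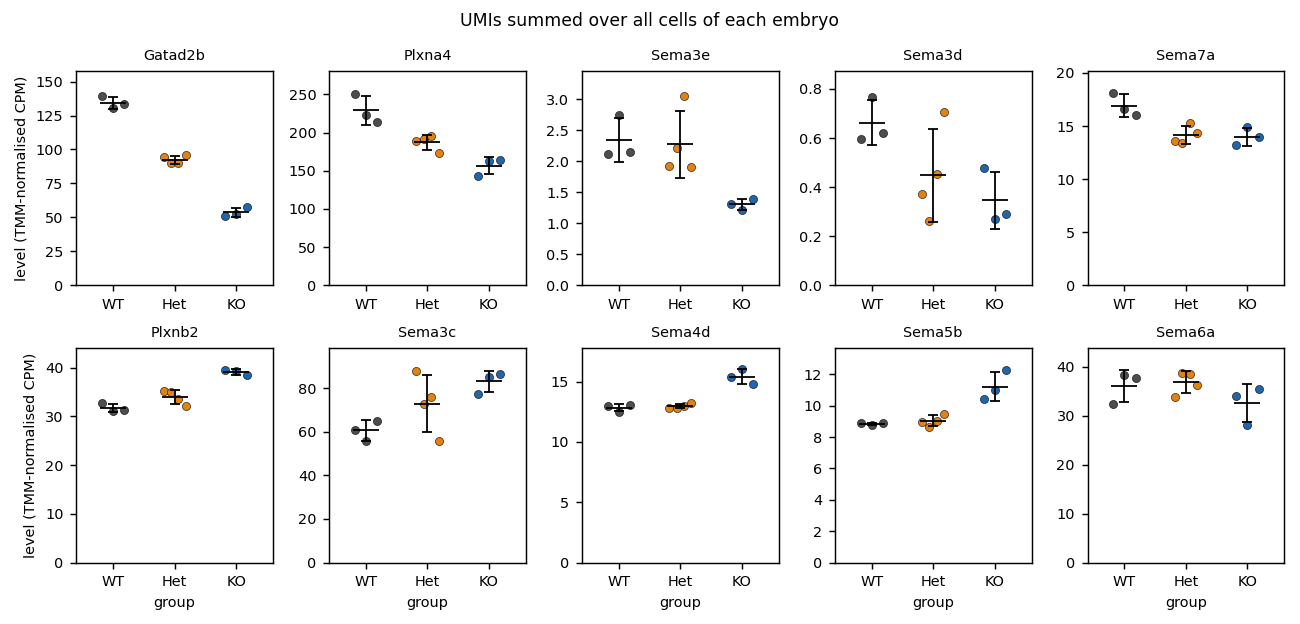
Level (CPM, linear axis from 0) of Gatad2b and 9 members summed over all cells of each embryo, with 1 point per embryo and bars for the group mean ± SD. Plxna4 falls from WT (214 to 250.2 CPM) through Het (173 to 195 CPM) to KO (144 to 164 CPM), while Sema3e is low only in KO (1.22 to 1.39 CPM).

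Markers of several cell types also moved over all cells in KO vs WT, and their part in these results was not tested. All 7 subventricular zone markers were called higher, with a summed level of 202 to 216 CPM in WT and 340.0 to 379.9 CPM in KO embryos. Of the oligodendrocyte precursor markers, 4 of 6 were called lower (29.6 to 36.4 CPM in WT and 16.7 to 21.7 CPM in KO embryos), and so were 5 of the 6 tested choroid plexus markers (3.39 to 1788 CPM in WT and 0.762 to 1.71 CPM in KO embryos). The choroid plexus sum differed widely between the WT embryos. Of the layer V-VI markers, 3 of 11 were called higher and 2 lower, with a sum that did not overlap (672 to 765 CPM in WT and 846 to 1031 CPM in KO embryos). Layer II-IV markers were called lower for 2 of 9 (1098 to 1291 CPM in WT and 1006 to 1114 CPM in KO embryos), interneuron markers for 3 of 16 (847 to 1118 CPM in WT and 803 to 931 CPM in KO embryos).

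Within classes, members were called in both directions. Across 11 classes, 51 of 243 pairs of member and class were called in KO vs WT (21%, beside 15.2% of all pairs of gene and class), 24 higher and 27 lower. The 51 calls involved 24 members, 80% of the 30 tested, beside 51.3% of all genes tested in any class. Of these, 7 were called higher in some classes and lower in others (Sema3a, Sema3c, Sema3f, Sema4d, Sema5a, Sema6a and Sema6d). That is 29.2% of the members called in any class, beside 7.62% of all genes called in any class. Of genes called in at least 2 classes it is 43.8% of members, beside 13.8% of all genes, and the difference was not tested. Nrp2, Plxnb3, Plxnd1, Sema3b, Sema4a, Sema4b and Sema4g were called in no class and in no comparison. Of the 51 calls, 31 were kept whichever embryo was left out, and the embryos on which the other 20 rested are named beside them. With at most 5% mitochondrial UMIs per cell 12 of the 50 that could still be tested were lost. With the library prefix as a covariate 17 of the 51 stayed. They were Plxna2, Plxna4, Sema4d, Sema5a, Sema6a and Sema6d in layer II-IV-like neurons and Plxna4, Sema3a, Sema3e and Sema5a in layer V-VI-like neurons. The others were Sema3c, Sema4d, Sema6b and Sema6d in subventricular zone-like cells, Sema3a and Sema6d in radial glia-like cells and Sema6a in Cajal-Retzius-like cells. None of the calls in interneuron-like, striatal inhibitory-like, ganglionic eminence-like and erythroid-like cells stayed. Among the calls that stayed, Sema3a, Sema4d and Sema6d still had both directions, whereas Sema3c, Sema3f, Sema5a and Sema6a did not.

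**Figure D3:**
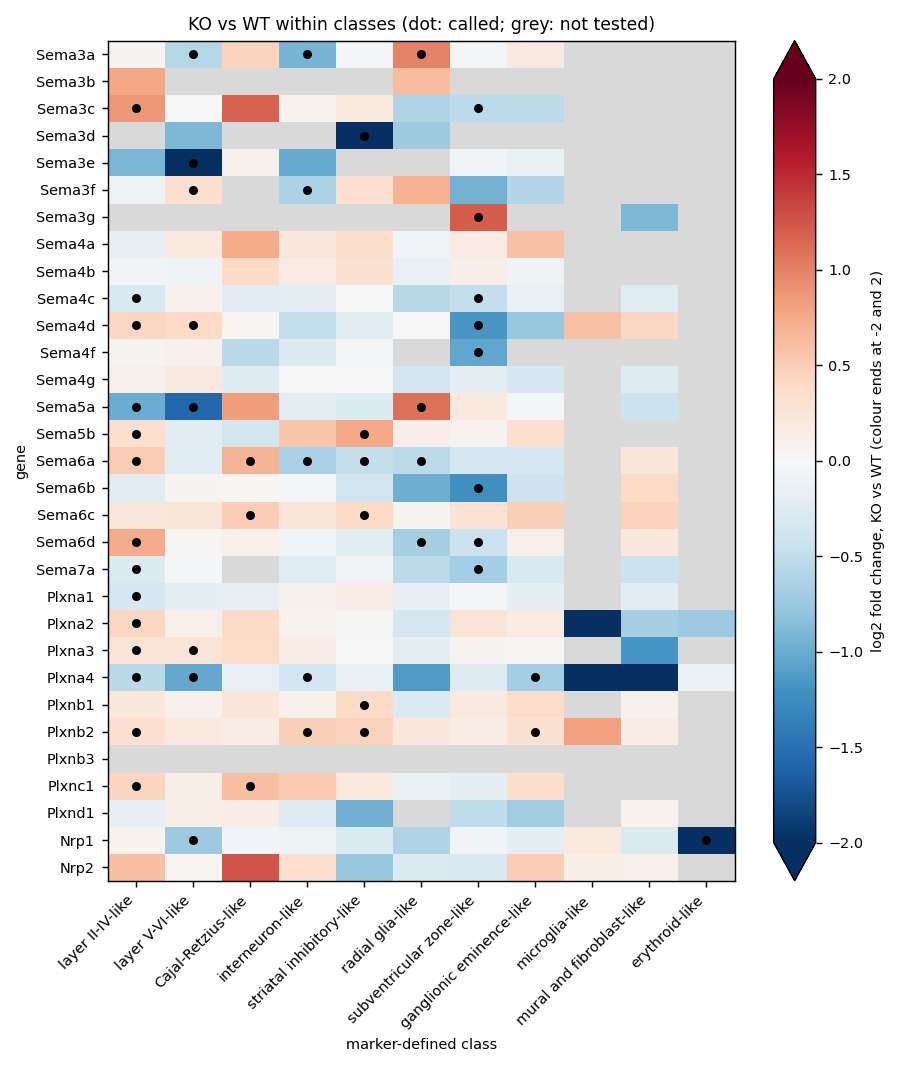
KO vs WT log2 fold change of each member in 11 classes, as colour from -2 (lower in KO) to 2 (higher in KO), with a dot where the change was called and grey where the gene was too sparse to test. Layer II-IV-like neurons carry 14 dots, and Sema6a is called in 5 classes, higher in 2 and lower in 3.

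In layer II-IV-like neurons, 14 of 28 members tested were called (30.0% of all genes in this class), 9 higher (14.2% of all genes) and 5 lower (15.8%). All of the A-type plexins were among them, in opposite directions. Plxna4 fell from 437, 446 and 412 CPM in WT to 284, 294 and 318 CPM in KO embryos, with 356, 385, 419 and 366 CPM in Het embryos (log2 fold change -0.53, SE 0.06, adjusted p = 3.66e-06), and Plxna1 fell as well (-0.34). Plxna2, which had 265, 253 and 263 CPM in WT and 345, 323 and 368 CPM in KO embryos, rose (log2 fold change 0.41, SE 0.05, adjusted p = 7.06e-06), as did Plxna3 (0.27), Plxnb2 (0.33) and Plxnc1 (0.44). For each of these receptors the KO embryos overlapped with neither other group. Nrp1 stood at 338, 275 and 352 CPM in WT and 328, 324 and 363 CPM in KO embryos and overlapped (log2 fold change 0.07, SE 0.11, adjusted p = 0.63).

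The ligands of layer II-IV-like neurons split as well. Sema5a, whose protein can attract or repel axons, stood at 12.7, 9.55 and 10.8 CPM in WT, 10.3, 9.5, 10.2 and 8.69 CPM in Het and 4.87, 4.74 and 7.0 CPM in KO embryos (log2 fold change -0.99, SE 0.14, adjusted p = 7.82e-05), and every KO embryo lay below every other embryo. Sema7a (-0.27) and Sema4c (-0.31) fell too. Sema3c rose the most of the 9 members called higher, at 73.9, 65.4 and 78.9 CPM in WT, 122, 93.9, 97.4 and 76.6 CPM in Het and 118, 137 and 144 CPM in KO embryos (log2 fold change 0.87, SE 0.16, adjusted p = 0.00362), and Het 1 reached the level of the KO embryos. Sema6d, at 35.8, 33.6 and 34.7 CPM in WT, 42, 32, 33.2 and 44.1 CPM in Het and 53.5, 56.8 and 63.4 CPM in KO embryos, rose with KO above both other groups (log2 fold change 0.74, SE 0.12, adjusted p = 0.000899). Sema6a was low in this class but climbed in steps, with 7.82, 8.31 and 8.62 CPM in WT, 9.0, 10.2, 10.3 and 10.3 CPM in Het and 12.3, 10.8 and 11.8 CPM in KO embryos and no overlap of the 3 groups (log2 fold change 0.50, SE 0.08, adjusted p = 0.00012). Sema4d, at 15.1, 14.1 and 16 CPM in WT and 19.3, 20.7 and 19.9 CPM in KO embryos, rose by 0.41, and Sema5b by 0.33. The Sema7a call was lost without KO 1 (-0.23) and that of Sema5b without KO 2 (0.38), KO 3 (0.23), WT 1 (0.37), WT 2 (0.29) and WT 3 (0.34). In this class 5 of the 6 tested subventricular zone markers were called higher (88.6 to 99.5 CPM in WT and 156 to 188 CPM in KO embryos) and 9 of 16 interneuron markers lower (215 to 243 CPM in WT and 147 to 168 CPM in KO embryos). Of the layer V-VI markers, 4 of 11 were called higher and 2 lower (324 to 385 CPM in WT and 509 to 554 CPM in KO embryos), and of its own 9 markers 3 were called lower (1915 to 2041 CPM in WT and 1761 to 1853 CPM in KO embryos). Their part in the result was not tested.

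In layer V-VI-like neurons, which send axons out of the cortex, 8 of 28 members tested were called (22.4% of all genes), 3 higher (11.3%) and 5 lower (11.2%). Plxna4 fell by the most among the receptors. It stood at 61.9, 52.4 and 53.9 CPM in WT, 34.1, 42.1, 42.4 and 33.8 CPM in Het and 25.9, 27.1 and 30.1 CPM in KO embryos, and no group overlapped with another (KO vs WT, log2 fold change -1.02, SE 0.10, adjusted p = 1.21e-05). Nrp1, the receptor subunit for Sema3a, was at 341, 349.9 and 515 CPM in WT, 314, 416, 401 and 349.6 CPM in Het and 245, 227 and 257 CPM in KO embryos. The KO embryos lay below all others (log2 fold change -0.72, SE 0.17, adjusted p = 0.0164). That call was lost without KO 1 (-0.73) and KO 2 (-0.68). Plxna3 rose by 0.26.

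Of the ligands, Sema3e had 5.79, 7.51 and 6.82 CPM in WT, 5.13, 5.47, 8.77 and 3.22 CPM in Het and 1.39, 1.7 and 1.71 CPM in KO embryos, and the KO level was 0.236 times that of WT (log2 fold change -2.08, SE 0.34, adjusted p = 0.00117). Sema5a, at 12.3, 13.9 and 11 CPM in WT, 14.2, 8.7, 11.4 and 7.02 CPM in Het and 3.61, 4.02 and 4.94 CPM in KO embryos, was also below every other embryo in KO (log2 fold change -1.58, SE 0.26, adjusted p = 0.00153). Sema3a, with 12.6, 12 and 11.3 CPM in WT and 7.41, 8.16 and 8.6 CPM in KO embryos, fell (log2 fold change -0.58, SE 0.10, adjusted p = 0.000423). Sema4d rose, from 18.2, 17.8 and 18.4 CPM in WT to 22.9, 25.8 and 23 CPM in KO embryos (log2 fold change 0.40, SE 0.07, adjusted p = 0.000745), and Sema3f rose by 0.33, a call lost without WT 3 (0.24). In this class 4 of its own 11 markers were called higher and 2 lower (1887 to 2105 CPM in WT and 2395 to 2659.9 CPM in KO embryos). Of the radial glia markers, 3 of 10 were called higher and 2 lower (546 to 594 CPM in WT and 809.8 to 871 CPM in KO embryos). Of the interneuron markers, 5 of 16 were called lower (306 to 359 CPM in WT and 190.0 to 265 CPM in KO embryos), and of the layer II-IV markers 5 of 9 lower and 2 higher (526 to 639 CPM in WT and 521 to 583 CPM in KO embryos). Their part in the result was not tested.

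In Cajal-Retzius-like cells, 3 of 25 members were called (6.19% of all genes), all higher (3.15%). Sema6a, already highest in this class, stood at 193, 225 and 209 CPM in WT, 247, 219.8, 238 and 269 CPM in Het and 357, 320.4 and 326 CPM in KO embryos, with KO above all other embryos (log2 fold change 0.68, SE 0.09, adjusted p = 2.18e-06). Plxnc1 (0.60) and Sema6c (0.49) also rose, but Plxnc1 was lost without Het 1 (0.60), KO 1 (0.55), KO 3 (0.49), WT 1 (0.47) and WT 2 (0.61), and Sema6c without KO 1 (0.40), KO 2 (0.46), WT 1 (0.51), WT 2 (0.53) and WT 3 (0.44). Of this class's own 8 markers, 1 was called higher and 1 lower.

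In interneuron-like cells the same Sema6a moved the other way. There 5 of 27 members were called (8.68% of all genes), 4 lower (4.4%) and 1 higher (4.29%). Sema6a stood at 89.3, 94.8 and 85.9 CPM in WT, 81.4, 74.9, 83.1 and 71.4 CPM in Het and 52.3, 50.1 and 68.4 CPM in KO embryos, with no overlap between groups (log2 fold change -0.66, SE 0.10, adjusted p = 0.00249). Sema3a fell to 0.525 times its WT level, with 38.3, 47.7 and 38.8 CPM in WT, 32.6, 34, 40.9 and 42.3 CPM in Het and 16.3, 21 and 27.8 CPM in KO embryos (log2 fold change -0.93, SE 0.17, adjusted p = 0.00904). Sema3f (-0.63) and Plxna4 (109.7, 95.4 and 96.3 CPM in WT and 75.3, 75 and 79.4 CPM in KO embryos, log2 fold change -0.39, SE 0.07, adjusted p = 0.0055) fell, and Plxnb2 rose (20.9, 17.6 and 20.4 CPM in WT and 29, 29.3 and 23.5 CPM in KO embryos, log2 fold change 0.48, SE 0.12, adjusted p = 0.0255). The Sema3a call was lost without KO 2 (-0.91), that of Plxnb2 without KO 1 (0.43), KO 2 (0.41), WT 2 (0.40) and WT 3 (0.51), and that of Sema3f without Het 2 (-0.63), Het 3 (-0.63), KO 1 (-0.50), KO 3 (-0.57), WT 1 (-0.60), WT 2 (-0.66) and WT 3 (-0.65). Beside this, 2 of the 6 tested subventricular zone markers were called higher in these cells (40.2 to 54.1 CPM in WT and 78.2 to 104 CPM in KO embryos) and 4 of 9 layer II-IV markers lower (670.3 to 916 CPM in WT and 729 to 773 CPM in KO embryos). The mix of clusters changed too. Cluster 17 held 18% of the class in WT and 7.73% in KO embryos on average, and its cells followed the library prefix, with 214 to 250 in WT embryos and 263 in Het 4 but 54, 89 and 89 in Het 1 to Het 3 and 32 to 117 in KO embryos. Its median depth was 2142 UMIs per cell, beside 8044 in cluster 2 and 7298.5 in cluster 9. The part of the markers, cluster mix and depth in the result was not tested.

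Striatal inhibitory-like cells gave 6 calls among 27 members (14.7% of all genes), 4 higher (7.42%) and 2 lower (7.29%). Plxnb1 (0.39), the receptor of Sema4d, and Plxnb2 (32.2, 37.2 and 30.6 CPM in WT and 45.7, 48.3 and 43.6 CPM in KO embryos, log2 fold change 0.46, SE 0.10, adjusted p = 0.00285) rose together with Sema5b (6.74, 7.66 and 5.33 CPM in WT and 9.0, 11.6 and 12.5 CPM in KO embryos, log2 fold change 0.76, SE 0.21, adjusted p = 0.0155) and Sema6c (0.39). Sema6a fell from 16.9, 15.7 and 14.8 to 10.2, 12.5 and 11.2 CPM (-0.47). Sema3d, at 2.18, 2.5 and 1.92 CPM in WT, 1.42, 0, 0.346 and 1.65 CPM in Het and 0.948, 0 and 0.43 CPM in KO embryos, rested on few UMIs (log2 fold change -2.30, SE 0.72, adjusted p = 0.0329). Calls were lost for Sema6a without KO 1 (-0.41), KO 2 (-0.56), KO 3 (-0.46), WT 1 (-0.42), WT 2 (-0.48) and WT 3 (-0.52), for Sema3d without KO 2 (-1.66), KO 3 (-2.30), WT 1 (-2.30), WT 2 (-2.19) and WT 3 (-2.39), for Sema5b without KO 2 (0.72), KO 3 (0.66) and WT 3 (0.61) and for Plxnb1 without KO 2 (0.38), KO 3 (0.35) and WT 1 (0.33). Of the layer V-VI markers, 4 of 11 were called lower and 1 higher in these cells (599 to 677 CPM in WT and 417 to 500.4 CPM in KO embryos), 3 of the 6 tested subventricular zone markers higher (85.4 to 95 CPM in WT and 121 to 139 CPM in KO embryos), 3 of 16 interneuron markers higher and 3 lower, and of their own 14 markers 3 higher and 1 lower. Their part in the result was not tested.

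Among the progenitors, radial glia-like cells changed 4 of 26 members (19.0% of all genes), all semaphorins, 2 higher (8.73%) and 2 lower (10.3%). The class was cluster 15 alone, whose marker score was 3.73 for oligodendrocyte precursors and 3.68 for radial glia. Its 10 leading genes held 1 marker of the former, Olig1, and 4 of the latter. Sema5a, which fell in both classes of excitatory neurons, rose here. It stood at 53.5, 51.8 and 49.8 CPM in WT, 109, 59.3, 65 and 76.4 CPM in Het and 126, 101 and 105 CPM in KO embryos. The Het embryos lay above the WT embryos and Het 1 reached the KO range (KO vs WT, log2 fold change 1.11, SE 0.20, adjusted p = 0.00321). Sema3a rose from 16.46, 10.1 and 13 CPM in WT to 26.8, 24.8 and 24.8 CPM in KO embryos (log2 fold change 0.99, SE 0.19, adjusted p = 0.000958). Sema6d fell in steps, from 86, 81.2 and 88.6 CPM in WT through 58.5, 77.7, 74.1 and 58 CPM in Het to 55.6, 49.2 and 54.6 CPM in KO embryos, with no overlap (log2 fold change -0.67, SE 0.11, adjusted p = 0.000216). Sema6a fell from 93.8, 117 and 96.5 to 77.7, 49.2 and 83.9 CPM (log2 fold change -0.52, SE 0.15, adjusted p = 0.0254), and was lost without WT 2 (-0.40) and WT 3 (-0.56). Of the class's own 10 markers, 6 were called lower and 2 higher (18718 to 21116 CPM in WT and 14867 to 17045 CPM in KO embryos), and 3 of 6 oligodendrocyte precursor markers lower (585 to 778 CPM in WT and 276 to 309 CPM in KO embryos). Of the interneuron markers, 5 of 16 were called lower and 1 higher (245 to 439 CPM in WT and 262 to 359 CPM in KO embryos). Their part in the result was not tested.

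Subventricular zone-like cells had 8 of 28 members called (23.1% of all genes), every one a semaphorin, with 7 lower (12.7% of all genes) and 1 higher (10.4%). Sema4d, which rose in both layer classes, fell here from 10.2, 12.5 and 10.8 CPM in WT through 7.69, 8.61, 9.16 and 6.33 CPM in Het to 4.53, 6.03 and 4.66 CPM in KO embryos, with no overlap (log2 fold change -1.16, SE 0.20, adjusted p = 0.000251). Sema3c also went against its direction in layer II-IV-like neurons, with 147, 145 and 123 CPM in WT, 132, 99.5, 134 and 91.6 CPM in Het and 90.1, 95.2 and 102 CPM in KO embryos (log2 fold change -0.53, SE 0.15, adjusted p = 0.0244). Sema6d stood at 66.1, 59.6 and 63.6 CPM in WT, 50.7, 43.4, 55.2 and 41 CPM in Het and 43.2, 51.3 and 47 CPM in KO embryos (log2 fold change -0.42, SE 0.10, adjusted p = 0.004), with Het and KO overlapping each other and both below WT. Sema6b (-1.22), Sema4f (-1.04), Sema7a (-0.68) and Sema4c (-0.47) fell and Sema3g, at 0.652, 1.71 and 1.93 CPM in WT and 4.4, 2.26 and 3.37 CPM in KO embryos, rose (log2 fold change 1.21, SE 0.39, adjusted p = 0.0249). Sema5a, highest in this class, gave 132, 132 and 130.1 CPM in WT and 144, 155 and 153 CPM in KO embryos and no call (log2 fold change 0.20, SE 0.09, adjusted p = 0.133). Calls were lost for Sema3c without KO 1 (-0.48), KO 2 (-0.52), WT 1 (-0.48) and WT 2 (-0.49), for Sema3g without KO 1 (0.97), KO 3 (1.22), WT 1 (0.91) and WT 2 (1.36) and for Sema4f without WT 3 (-0.90). Here 5 of the 7 subventricular zone markers were called higher (1715 to 1819.9 CPM in WT and 2253 to 2444 CPM in KO embryos), 7 of 16 interneuron markers lower and 1 higher, 5 of 11 layer V-VI markers lower and 3 of 9 layer II-IV markers lower. The class held 2 clusters, with marker scores of 3.57 for cluster 7 and 1.33 for cluster 21. Cluster 7 was led by Eomes and Neurog2, and cluster 21 by Tesc, Tac2, Prox1 and Lhx9. Cluster 21 fell from 29.5% of the class in WT to 10.3% in KO embryos. In cluster 7 alone 4 of the 8 calls were kept (Sema3c, Sema3g, Sema4c and Sema7a) and 4 were lost: Sema4d (-0.51, adjusted p = 0.265), Sema4f (-0.46, adjusted p = 0.511), Sema6b (-0.92, adjusted p = 0.171) and Sema6d (-0.04, adjusted p = 0.874). Without integration of the embryos 4 of the 8 were lost (Sema4d, Sema4f, Sema6b and Sema7a) and Sema6d turned its sign. In cluster 21 alone the 7 that could be tested missed the threshold, with Sema6d nearest to it (-0.99, adjusted p = 0.0742). The part of the markers and of the cluster mix in the result was not tested.

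Ganglionic eminence-like progenitors had 2 of 26 members called (8.98% of all genes), 1 lower (4.48%) and 1 higher (4.51%). Clusters 14 and 16 of this class were named from their marker score, with subventricular zone the next best class. None of their 10 leading genes was a marker of the class. Cluster 14 was led by Ube2c, Cenpa and Cenpf, and cluster 16 by Hist1h1b, Hist1h2ab and Top2a. Plxna4 fell (73.1, 55.9 and 60.3 CPM in WT and 47, 32.2 and 38.4 CPM in KO embryos, log2 fold change -0.68, SE 0.15, adjusted p = 0.0151) and Plxnb2 rose (45.1, 47.7 and 44.5 CPM in WT and 61.4, 60.9 and 48.1 CPM in KO embryos, log2 fold change 0.31, SE 0.10, adjusted p = 0.0448), the same directions as over all cells. Both were sensitive to single embryos: Plxna4 was lost without KO 3 (-0.66) and Plxnb2 without Het 3 (0.31), KO 1 (0.25), KO 2 (0.26), WT 1 (0.30), WT 2 (0.34) and WT 3 (0.29). In these cells the oligodendrocyte precursor markers Olig1 and Olig2, of 3 tested, were called lower (48.9 to 81 CPM in WT and 18.6 to 28.7 CPM in KO embryos, all 6 markers summed). Layer V-VI markers were called lower for 3 of 11 (202 to 239 CPM in WT and 154 to 211 CPM in KO embryos). Of their own 6 markers Gsx2 was called higher and Gsx1 lower (1156 to 1291 CPM in WT and 1197 to 1517 CPM in KO embryos). What part they had in the result was not tested. No member was called in microglia-like cells (0 of 6, 3.28% of all genes, 3 with unadjusted p under 0.05) or in mural and fibroblast-like cells (0 of 19, 0.424% of all genes, 3 with unadjusted p under 0.05) by edgeR. DESeq2 called 1 of the 6 in microglia-like cells, Plxna2 (log2 fold change -2.84, adjusted p = 0.0187), beside 3.8% of all genes with an adjusted p. In mural and fibroblast-like cells it gave an adjusted p for 11 of the 19 members and called none of these, beside 1.49% of all genes with one. The other 8 could not be called by DESeq2, among them Plxna4 (log2 fold change -2.50). In erythroid-like cells 1 of 3 was called (13.3% of all genes, 1.97% lower), Nrp1 at background counts, with 5.61, 17.3 and 6.3 CPM in WT, 5.13, 3.36, 10.2 and 7.01 CPM in Het and 0, 0 and 1.45 CPM in KO embryos, a call lost without KO 1 (-3.61) and KO 2 (-3.57). Beside it 7 of the 8 erythroid markers were called higher. These calls and CPM are relative to TMM factors of 1.41 to 1.97 in WT and 0.439 to 0.611 in KO embryos, which in a class made mostly of globin can take a scaled sum past its possible maximum. Unscaled, the 8 markers took 83.9 to 87.6% of the class's UMIs in WT and 91.8 to 92.8% in KO embryos, and Nrp1 stood at 10.7, 24 and 12.1 CPM in WT and 0, 0 and 0.881 CPM in KO embryos. The part of the markers and of the scaling in the result was not tested.

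**Figure D4:**
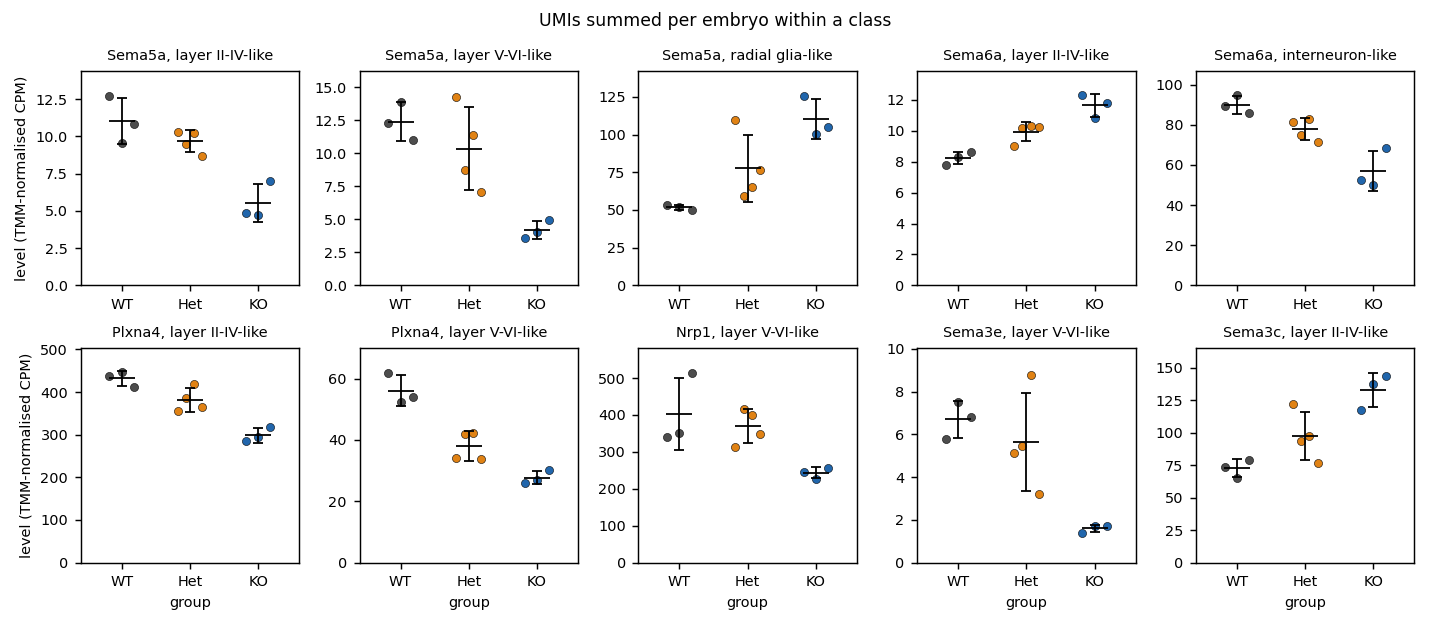
Level (CPM, linear axis from 0) of selected members in single classes, with 1 point per embryo and bars for the group mean ± SD. Sema5a is lower in KO than in WT in both layer classes and higher in radial glia-like cells, and Sema6a is higher in layer II-IV-like and lower in interneuron-like cells.

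That a change was called in one class and not in another does not show that the classes differ, so the difference of the KO vs WT changes was tested for the 3 largest neuron classes. Between layer II-IV-like and layer V-VI-like neurons it was called for 8 of 29 members (9.59% of all genes), between layer II-IV-like and interneuron-like cells for 5 of 28 (5.79%) and between layer V-VI-like and interneuron-like cells for 3 of 28 (4.71%). Sema6a differed in all of these pairs, by 1.18, SE 0.11, adjusted p = 5.6e-06 for layer II-IV-like minus interneuron-like, by 0.75, SE 0.08, adjusted p = 4.19e-07 for layer II-IV-like minus layer V-VI-like, and by 0.42, SE 0.09, adjusted p = 0.0118 for layer V-VI-like minus interneuron-like cells. Plxna4 fell further in layer V-VI-like neurons than in layer II-IV-like neurons (0.49, SE 0.08, adjusted p = 0.00246) and further than in interneuron-like cells (-0.63, SE 0.09, adjusted p = 0.000394). Nrp1 differed between the layer classes (0.78, SE 0.21, adjusted p = 0.0495), and Sema3a between layer II-IV-like neurons and each of the other classes (0.63, SE 0.10, adjusted p = 9.8e-05 against layer V-VI-like and 1.00, SE 0.18, adjusted p = 0.00938 against interneuron-like cells). Sema3f also differed in all of these pairs (0.56, -0.43 and 0.98 in the order given for Sema6a). Sema5a and Sema3e were not called in any of these differences. With a class by library prefix term 8 of the 16 differences stayed and 8 were lost. Between the layer classes the losses were Nrp1 (1.13, adjusted p = 0.158), Sema3f (-0.61, adjusted p = 0.0634), Sema4c (-0.26, adjusted p = 0.193) and Sema6b (-0.21, adjusted p = 0.542). For layer II-IV-like minus interneuron-like cells they were Plxna1 (-0.46, adjusted p = 0.237), Sema3a (0.73, adjusted p = 0.331) and Sema3f (0.71, adjusted p = 0.21). For layer V-VI-like minus interneuron-like cells Sema6a was lost (0.59, adjusted p = 0.0842). Whichever embryo was left out, 10 of the 16 were kept. Between the layer classes Nrp1 was lost without Het 3 (0.78), Het 4 (0.78), KO 1 (0.83), KO 2 (0.78), KO 3 (0.78), WT 2 (0.76) and WT 3 (0.66). Sema3f was lost there without KO 1 (-0.36) and WT 3 (-0.34) and Sema6b without KO 1 (-0.30), KO 2 (-0.26), KO 3 (-0.23), WT 2 (-0.26) and WT 3 (-0.26). Between layer II-IV-like and interneuron-like cells Plxna1 was lost without KO 1 (-0.44), KO 3 (-0.32) and WT 3 (-0.34). Sema3f was lost between these classes without Het 3 (0.54), KO 1 (0.46), KO 3 (0.54), WT 1 (0.52), WT 2 (0.54) and WT 3 (0.58). Between layer V-VI-like and interneuron-like cells Sema6a was lost without KO 1 (0.35) and KO 2 (0.40). Without integration both differences of Plxna4 were lost (0.56, adjusted p = 0.0623, and -0.43, adjusted p = 0.455). Sema6a between layer V-VI-like and interneuron-like cells was lost without integration, at resolution 0.8 and by limma, and limma also lost Plxna1 and Sema6b.

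The mix of clusters within a class also moved with the genotype. In the layer II-IV-like class, cluster 0 (with Inhba and Cdh12 among its leading genes) held 40.2% of the cells in WT, 36.8% in Het and 27.4% in KO embryos on average, whereas cluster 3 (led by Unc5d and Pdzrn3) held 22.7%, 28.0% and 35.5%. Each cluster was therefore fitted alone. The single-cluster fits here and below had no prefix term and were not repeated with embryos left out. In their KO vs WT changes the prefix and the genotype cannot be told apart. Sema3c rose within cluster 0, from 15.5, 14.4 and 15.6 CPM in WT through 37.4, 28.1, 21.2 and 20.3 CPM in Het to 60.7, 79.5 and 67 CPM in KO embryos (log2 fold change 2.18, SE 0.23, adjusted p = 0.000302, 24.6% of all genes called), and in clusters 11 (1.67, 19.4% of all genes called) and 4 (0.99, 28.4%). In cluster 3, where Sema3c was at 283, 289 and 292 CPM in WT and 233, 261 and 251 CPM in KO embryos, it did not (log2 fold change -0.21, SE 0.12, adjusted p = 0.228). Cluster 3 held more Sema3c than cluster 0 in every embryo, and the part of its larger share in the class value was not tested. For Plxna4 too, cluster 3 gave no call. It fell in cluster 4 (398, 405 and 372 CPM in WT and 176, 196 and 229 CPM in KO embryos, log2 fold change -0.97, SE 0.11, adjusted p = 7.05e-05), in cluster 0 (-0.39) and in cluster 11 (-0.74), and stood at 349, 331 and 328 CPM in WT and 323, 308 and 362 CPM in KO embryos in cluster 3 (log2 fold change -0.02, SE 0.07, adjusted p = 0.856). Markers moved within these clusters too. In cluster 0, 6 of 11 layer V-VI markers were called higher and 3 lower (398 to 460.5 CPM in WT and 654 to 718 CPM in KO embryos) and 8 of 16 interneuron markers lower and 1 higher (190.3 to 242 CPM in WT and 56.1 to 92.2 CPM in KO embryos). Of the 6 tested subventricular zone markers 4 were called higher (41.2 to 50.3 CPM in WT and 79.4 to 102 CPM in KO embryos). Layer V-VI markers were called higher for 4 of 11 in clusters 4 (203 to 212 CPM in WT and 393 to 438 CPM in KO embryos) and 11 (326 to 405 CPM in WT and 631 to 712 CPM in KO embryos) and for 2 in cluster 3 (290.0 to 402 CPM in WT and 388 to 415 CPM in KO embryos). No test was made of their part in the results.

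Sema5a was lower in every cluster of layer II-IV-like neurons. In cluster 3, where it was most abundant, it stood at 53.5, 51 and 48.5 CPM in WT, 35.7, 41.7, 43.6 and 31.9 CPM in Het and 16.7, 15.5 and 20.4 CPM in KO embryos, and the 3 groups did not overlap (log2 fold change -1.53, SE 0.11, adjusted p = 2.75e-09, 21.5% of all genes called). The change was -1.45 in cluster 0, -1.80 in cluster 4 and -1.93 in cluster 11. Cluster 11 was named from its marker score, but none of its 10 leading genes, Ntf3 and Nrip1 among them, was a marker of the class, and without integration a cluster led by Nrip1, Oma1, Ldb2 and Fezf2 was named layer V-VI-like. Sema6a rose in cluster 0 (10.00, 10.1 and 10.1 CPM in WT and 19.1, 18.6 and 22.2 CPM in KO embryos, log2 fold change 0.98, SE 0.09, adjusted p = 4.77e-08) and cluster 4 (0.68), but had -0.10 in cluster 3 and -0.17 in cluster 11, where it was not called. Sema6d rose in clusters 0 (0.69), 3 (0.39) and 11 (1.05), and gave -0.10 with no call in cluster 4. Plxna2 rose in clusters 4 (0.56) and 11 (0.26). It was not called in cluster 0 (0.02, adjusted p = 0.791) or cluster 3 (0.09, adjusted p = 0.219). Sema5b, called higher over the whole class, was called in no single cluster. Its change was 0.12 in cluster 0, 0.20 in cluster 3, 0.25 in cluster 4 and -0.28 in cluster 11.

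The layer V-VI-like class held 2 clusters. Cluster 1, led by Hs3st4, Nxph3, Fezf2 and Tle4, gave the larger estimates for Nrp1, Plxna4, Sema3a, Sema3e and Sema4d. Sema3f stood at 0.31 in both. Estimates were larger in cluster 8 for Plxna3 (0.33, beside 0.22 in cluster 1) and Sema5a (-2.33, adjusted p = 0.0527, not called, beside -1.38). In cluster 1 Nrp1 fell from 122, 93.2 and 117 CPM in WT through 84.2, 59.4, 79.6 and 73.5 CPM in Het to 29, 30.6 and 28.8 CPM in KO embryos, without overlap between groups (log2 fold change -1.91, SE 0.14, adjusted p = 7.72e-06, 24.2% of all genes called). In cluster 8, led by Crym and Grp, Nrp1 was far more abundant and fell less (968, 899 and 989 CPM in WT and 674, 703 and 692 CPM in KO embryos, log2 fold change -0.47, SE 0.06, adjusted p = 4.51e-06, 16.4% of all genes called). Sema3e, at 6.18, 6.67 and 6.04 CPM in WT, 4.25, 4.3, 8.14 and 3.83 CPM in Het and 1.08, 0.888 and 0.372 CPM in KO embryos in cluster 1, fell by the most of all members there (log2 fold change -2.97, SE 0.34, adjusted p = 8.56e-06), and in cluster 8 it gave 4.75, 9.34 and 7.78 CPM in WT and 2.02, 3.65 and 4.27 CPM in KO embryos with no call (log2 fold change -1.22, SE 0.59, adjusted p = 0.207). Sema6d went in opposite directions, higher in cluster 1 (log2 fold change 0.64, SE 0.10, adjusted p = 0.000162) and lower in cluster 8 (log2 fold change -0.52, SE 0.09, adjusted p = 0.00037). The difference between the clusters was not tested. In cluster 1, 8 of 16 interneuron markers were called lower (367 to 392 CPM in WT and 176 to 244 CPM in KO embryos) and 4 of 10 radial glia markers higher and 1 lower (523 to 579 CPM in WT and 758 to 830.2 CPM in KO embryos). In cluster 8, 4 of the 8 tested radial glia markers were called higher (598 to 675 CPM in WT and 918 to 947 CPM in KO embryos), whose part in the results was not tested. Among interneuron-like cells, Sema6a fell in cluster 9 (75.1, 99.8 and 80.7 CPM in WT and 25.8, 15.6 and 35.4 CPM in KO embryos, log2 fold change -1.70, SE 0.18, adjusted p = 4.77e-07, 7.68% of all genes called), in cluster 17 (-1.73, 8.36%) and in cluster 2 (-0.69, 15.5%). Of these clusters, only cluster 2 gave a call for Sema3a (-1.21, adjusted p = 0.0125). Its change was -0.15 in cluster 9 (adjusted p = 0.851) and -0.31 in cluster 17 (adjusted p = 0.688). In subventricular zone-like cells, Sema5a rose in cluster 7, led by Eomes and Neurog2 (138, 135 and 122 CPM in WT and 162, 164 and 173 CPM in KO embryos, log2 fold change 0.34, SE 0.08, adjusted p = 0.00323, 15.8% of all genes called). In cluster 21, whose share of the class fell from 29.5% in WT to 10.3% in KO embryos, it stood at 116, 132 and 146 CPM in WT and 14.5, 62.9 and 36.3 CPM in KO embryos and was not called (4.8% of all genes in this cluster, log2 fold change -1.91, SE 0.45, adjusted p = 0.0561).

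**Figure D5:**
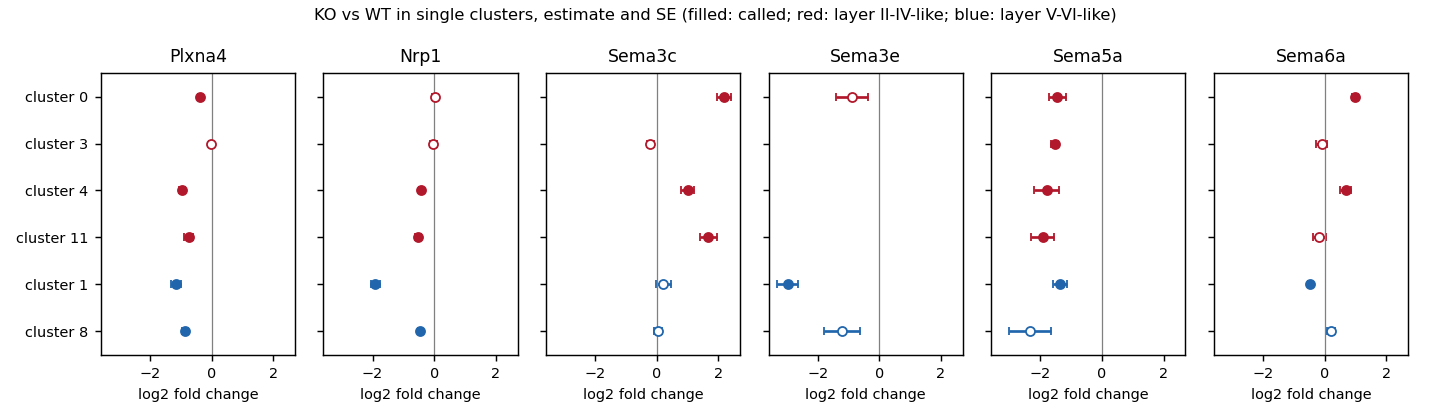
KO vs WT log2 fold change ± SE of 6 members in the single clusters of the layer II-IV-like (0, 3, 4 and 11) and layer V-VI-like (1 and 8) classes, with filled points where the change was called and no point where the gene was too sparse to test. Sema3c rises in clusters 0, 4 and 11 and not in 3, and Nrp1 falls most in cluster 1.

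Het embryos gave few calls within classes, 5 of 243 pairs (2.06%, beside 1.6% of all pairs of gene and class). In layer V-VI-like neurons (1.21% of all genes) Plxna4 was already lower (log2 fold change -0.56, SE 0.09, adjusted p = 0.0126), the only one of the 5 kept whichever embryo was left out. In layer II-IV-like neurons (6.1%) Sema7a fell (log2 fold change -0.28, SE 0.06, adjusted p = 0.0132) and Sema6a rose (log2 fold change 0.27, SE 0.08, adjusted p = 0.0334). In subventricular zone-like cells (2.95%) Sema6d fell (log2 fold change -0.41, SE 0.09, adjusted p = 0.0206) and so did Nrp1, whose values were 133, 138 and 144 CPM in WT, 92.4, 96.4, 117 and 118 CPM in Het and 131, 124 and 143 CPM in KO embryos (log2 fold change -0.38, SE 0.08, adjusted p = 0.0165). KO embryos did not share the fall of Nrp1 in that class. Calls were lost for Sema7a without Het 1 (-0.23) and WT 1 (-0.27), for Sema6a without Het 2 (0.26), Het 3 (0.25), WT 1 (0.23), WT 2 (0.28) and WT 3 (0.30), for Sema6d without Het 2 (-0.38), WT 1 (-0.38), WT 2 (-0.45) and WT 3 (-0.41) and for Nrp1 without Het 1 (-0.32), WT 2 (-0.39) and WT 3 (-0.35).

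KO vs Het, the comparison within which 6 of the 7 embryos share a library prefix, gave 20 of 243 calls (8.23%, beside 3.97%). Layer II-IV-like neurons had 8 (11.7% of all genes) and layer V-VI-like neurons 6 (8.41%). In the former, Plxna4 (-0.35), Sema5a (-0.80) and Sema3e (-1.39) were lower in KO, and Plxna2 (0.37), Sema4d (0.39), Sema5b (0.48), Sema6d (0.61) and Plxnc1 (0.30) higher. In the latter, Sema3e (-1.81), Sema5a (-1.30), Sema3a (-0.48), Plxna4 (-0.46) and Sema6a (-0.33) were lower and Sema4d (0.28) higher. Sema6a was higher in Cajal-Retzius-like cells (log2 fold change 0.47, SE 0.08, adjusted p = 0.00114, 1.24% of all genes) and Plxnb2 in interneuron-like cells (log2 fold change 0.71, SE 0.12, adjusted p = 0.00832, 0.622%). The other 4 calls lay in subventricular zone-like cells (7.28%), where Nrp1 (0.32) and Plxna2 (0.37) were higher and Sema4d (-0.64) and Sema4f (-0.88) lower. Of the 20 calls, 11 were kept whichever embryo was left out. In subventricular zone-like cells all 4 could be lost. Nrp1 was lost without Het 1 (0.26), Het 2 (0.28), KO 1 (0.33) and KO 3 (0.27), and Plxna2 without Het 4 (0.34), KO 1 (0.37), KO 2 (0.37) and KO 3 (0.38). For Sema4d this held without Het 1 (-0.66), Het 2 (-0.60), Het 3 (-0.58), KO 1 (-0.57), KO 2 (-0.77), KO 3 (-0.59), WT 2 (-0.65) and WT 3 (-0.65). For Sema4f it held without Het 1 (-0.91), Het 2 (-0.84), Het 3 (-0.88), Het 4 (-0.90), KO 1 (-0.77), KO 2 (-0.69) and WT 2 (-0.88). In layer II-IV-like neurons Plxnc1 was lost without Het 1 (0.24), Het 2 (0.30), Het 4 (0.31), KO 1 (0.29), KO 2 (0.34), KO 3 (0.27) and WT 3 (0.30). There Sema3e was lost without KO 2 (-1.17) and Sema5b without KO 3 (0.38). The remaining losses were Sema4d in layer V-VI-like neurons without Het 1 (0.25) and KO 2 (0.23) and Plxnb2 in interneuron-like cells without KO 1 (0.66) and KO 2 (0.66).

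The comparison of KO with Het 1 to Het 3 alone holds the prefix constant. All of the 3 calls over all cells were kept in it: Plxna4 (-0.29, adjusted p = 0.00404), Sema3e (-0.87, adjusted p = 0.0104) and Sema5b (0.33, adjusted p = 0.0109). Within classes 19 of 20 were kept, and Sema4f in subventricular zone-like cells was lost (-0.91, adjusted p = 0.0703). With the prefix as a term in KO vs WT, which separates it from the genotype only through Het 4 against Het 1 to Het 3, 4 of 8 calls over all cells stayed past both thresholds: Plxna4 (-0.70, adjusted p = 0.0042), Sema3e (-1.17, adjusted p = 0.0323), Sema4d (0.30, adjusted p = 0.0285) and Sema5b (0.43, adjusted p = 0.0281). Plxnb2 (0.19, adjusted p = 0.0645) and Sema7a (-0.25, adjusted p = 0.202) were lost, and Sema3c (-0.05, adjusted p = 0.881) and Sema3d (0.03, adjusted p = 0.98) changed sign. Of the 51 calls within classes, 17 stayed and 34 were lost, with none reversed. Those that stayed included Plxna4 (-0.61 in layer II-IV-like and -1.25 in layer V-VI-like neurons), Sema5a (-1.20 and -2.29 in the same classes), Sema3e in layer V-VI-like neurons (-3.09), Sema6a in Cajal-Retzius-like cells (0.88) and Sema6d in radial glia-like cells (-0.93). Those lost included Sema3c in layer II-IV-like neurons (0.42, adjusted p = 0.277), Nrp1 in layer V-VI-like neurons (-0.83, adjusted p = 0.229), Sema5a in radial glia-like cells (1.06, adjusted p = 0.222) and Sema6a in interneuron-like cells (-0.81, adjusted p = 0.0986). In Het vs WT neither call over all cells stayed (Plxna4, -0.40, adjusted p = 0.119, and Sema7a, -0.24, adjusted p = 0.357). Of its 5 calls within classes 1 stayed, Sema6d in subventricular zone-like cells (-0.62, adjusted p = 0.0437), and 4 were lost, among them Plxna4 in layer V-VI-like neurons (-0.73, adjusted p = 0.0666). Cluster 21 held 29.5% of the subventricular zone-like class in WT and 22.5% in Het embryos on average. Its part in the Het vs WT call of Sema6d was not tested. In KO vs WT, Sema6d changed by -0.04 in cluster 7 alone (adjusted p = 0.874).

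The other genes of the pathway were taken from a list of 51, of which 50 were tested over all cells. In KO vs WT 10 were called (20.0%, beside 24.3% of all genes). They were 6 of 29 adaptors, GTPase and kinase partners of plexins, 3 of 16 tested co-receptors and other ligands, and 1 of 5 collapsin response mediators. Mical2, an enzyme that oxidises actin, belongs to the family through which plexins disassemble filaments. It stood at 17.5, 16.7 and 16.6 CPM in WT, 9.44, 10.2, 10.2 and 8.99 CPM in Het and 4.61, 3.12 and 4.35 CPM in KO embryos, and the groups did not overlap (KO vs WT, log2 fold change -2.07, SE 0.11, adjusted p = 4.73e-07). Met, the hepatocyte growth factor receptor that associates with B-type plexins, followed the same course, with 10.5, 9.84 and 9.64 CPM in WT, 5.95, 6.97, 7.56 and 6.24 CPM in Het and 3.42, 2.66 and 3.19 CPM in KO embryos (log2 fold change -1.69, SE 0.11, adjusted p = 1.26e-06). Rnd1, a GTPase that binds plexins, fell as well, from 10.6, 10.7 and 10.00 CPM in WT to 7.28, 5.9 and 6.47 CPM in KO embryos (log2 fold change -0.67, SE 0.08, adjusted p = 6.11e-05). In the other direction Rnd2, a related GTPase that promotes the migration of new cortical neurons, rose in steps, with 51.4, 55 and 51.5 CPM in WT, 67, 62.5, 61.5 and 75.5 CPM in Het and 95.6, 103 and 107 CPM in KO embryos (log2 fold change 0.95, SE 0.07, adjusted p = 4.73e-06). Rnd2 was also among the 10 leading genes of cluster 3. That cluster held 22.7% of the layer II-IV-like class in WT, 28.0% in Het and 35.5% in KO embryos on average. The part of this share in the rise of Rnd2 was not tested. Dpysl2, the collapsin response mediator that carries Sema3a signals to microtubules, had 497, 565 and 487 CPM in WT, 659.9, 659.7, 718 and 511 CPM in Het and 657, 693 and 653 CPM in KO embryos (log2 fold change 0.37, SE 0.11, adjusted p = 0.0193), and Pgf, a growth factor that binds Nrp1, rose from 4.3, 4.91 and 5.37 CPM to 7.1, 5.96 and 6.36 CPM (log2 fold change 0.42, SE 0.11, adjusted p = 0.0103). For Dpysl2, Het 4 lay within the WT range and Het 1 to Het 3, with the library prefix of KO, within or above the KO range. With the prefix as a covariate the calls of Dpysl2 (-0.04, adjusted p = 0.868), Pgf (0.19, adjusted p = 0.552), Farp1 (-0.29, adjusted p = 0.0539) and Ptk7 (0.41, adjusted p = 0.0745) were lost, and those of Mical2 (-2.21, adjusted p = 0.000138), Met (-1.82, adjusted p = 0.000173), Rnd1 (-0.68, adjusted p = 0.0087) and Rnd2 (1.20, adjusted p = 1.35e-05) were kept. Het vs WT gave 4 calls among the 50 (8.0%, beside 3.18%), Rnd2 higher and Met, Mical2 and Tiam1 lower, and KO vs Het gave 5 (10.0%, beside 5.51%). With the prefix Met (-0.68, adjusted p = 0.101) and Tiam1 (-0.21, adjusted p = 0.275) were lost in Het vs WT, and Tiam1 was under the fold threshold in KO vs Het (-0.23, adjusted p = 0.0118).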

How the data were processed

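Cortex of 10 E16.5 mouse embryos was dissociated with papain and sequenced with the 10x Genomics 3′ v3 kit, 1 library per embryo. The authors deposited unnormalised UMI counts per gene and cell barcode. The submitters' processing notes name Cell Ranger 6.0.2 and mm10, and the study's methods give another version of Cell Ranger. The kit is stranded, and its UMIs lie near the 3′ end. Groups came from the sample titles. Of 80071 barcodes, 65779 passed the study's filters (at least 1000 UMIs, at most 10% mitochondrial UMIs). The study gives a higher count of cells in its methods and a lower one in its results. The 31 members, the marker lists and the pathway list were chosen with earlier results of these data known.

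Counts were clustered with Seurat 5.3.0 (2000 variable genes, 30 principal components, reciprocal PCA integration, resolution 0.4). Members, pathway genes, Gatad2b, sex-linked, haemoglobin and rDNA genes were left out. A cluster was named where its marker score reached 0.5, with at least 3 markers in at least 10% of its cells. Scores within 0.4 counted as a tie. Cluster 15 had such a tie and carries the name of the class with more markers among its 10 leading genes. Doublets were marked with scanpy 1.11.5 (Scrublet) at 0.8% per 1000 barcodes, 4.80 to 8.31% of cells, and kept. Its own threshold marked 0.0341 to 2.53%.

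UMIs were summed per embryo and per embryo and class (at least 20 cells in each embryo) and fitted over all genes and 10 embryos with edgeR 4.0.16 (filterByExpr, TMM, quasi-likelihood F-test, no covariates). Called means adjusted p under 0.05 and a log2 fold change beyond 0.25, the study's thresholds. The difference between classes was the class by group term with embryo as a block. The code was tested on simulated data. DESeq2 1.42.0, limma 3.58.1, R 4.3.3 and Python 3.11.15 were used besides.

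Over all cells, values in every embryo are given for the 12 members called over all cells or in at least 3 classes in KO vs WT. Within classes and clusters, values per embryo are given for selected members, Nrp1 and Plxna2 among them, in some or all groups. The rest are given by range, count or fold change. Of the pathway genes called over all cells in KO vs WT, the 3 largest rises and falls are given with their values. Other named members, clusters and classes were chosen after their values were seen. Columns of no sample numbered 0.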

Additional observations from a re-analysis of the deposited data

Results flagged for a closer look

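For 16 pairs of member and classes, the KO vs WT change differed between classes of neurons by a test of the difference itself (edgeR, adjusted p under 0.05 and a difference beyond 0.25 on the log2 scale, with embryo as a block). Layer II-IV-like minus layer V-VI-like neurons gave 8. The difference was 0.75 for Sema6a, 0.78 for Nrp1, 0.63 for Sema3a, 0.49 for Plxna4 and 0.30 for Plxna2, which were less lowered or more raised in layer II-IV-like neurons. It was -0.43 for Sema3f, -0.38 for Sema4c and -0.28 for Sema6b, the reverse. Layer II-IV-like minus interneuron-like cells gave 5, with 1.18 for Sema6a, 1.00 for Sema3a, 0.56 for Sema3f, 0.35 for Plxna2 and -0.42 for Plxna1. Layer V-VI-like minus interneuron-like cells gave 3, with 0.98 for Sema3f, -0.63 for Plxna4 and 0.42 for Sema6a. Sema6a and Sema3f were called in all 3 pairs. For Sema6a the KO embryos lay above the WT embryos in layer II-IV-like neurons and below them in interneuron-like cells. With a class by library prefix term 8 of the 16 stayed, among them Sema6a for layer II-IV-like minus each of the other classes, and 8 were lost. Leaving out 1 embryo at a time kept 10 of the 16 in every fit. No cause was tested.

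In the Het group, the only group of 4 embryos, Gatad2b and the 12 members with values in every embryo gave 0 of 13 cases of an embryo far from the others by Dixon's test over all cells, where chance flags about 1 in 20.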

How the results depend on the processing

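Over all cells, KO vs WT called 8 members, 4 with the library prefix as a covariate and 5 to 9 when 1 embryo was left out. Het vs WT called 2, and 4 with the replicate number as a block, 0 with the prefix, 1 from the 2 groups alone and 0 to 4 with 1 embryo left out. KO vs Het called 3, and 1 with at most 5% mitochondrial UMIs, 5 without non-neural classes and unnamed clusters, and 1 to 4 with 1 embryo left out. Within classes, KO vs WT gave 51 calls, 19 with the prefix and 40 to 56 with 1 embryo left out. Het vs WT gave 5, and 11 without a filter on low counts, 11 with the replicate block, 2 with the prefix, 3 with at most 5% mitochondrial UMIs, 1 at resolution 0.8, 1 without integration and 2 to 11 with 1 embryo left out. KO vs Het gave 20, 13 with at most 5% mitochondrial UMIs and 14 to 21 with 1 embryo left out. Differences between classes numbered 16, 9 with a class by prefix term and 10 to 20 with 1 embryo left out. With the prefix, pathway calls fell from 4 to 2 between Het and WT embryos and from 10 to 6 between KO and WT embryos. DESeq2, its size factors, doublet removal and the minimum of 3000 UMIs moved none of these counts by over 1.5 times. Single calls of KO vs WT within classes were lost all the same. With at most 5% mitochondrial UMIs they were 12: Plxnb2 and Sema3f in interneuron-like, Plxna4 and Plxnb2 in ganglionic eminence-like, Plxnc1 and Sema6c in Cajal-Retzius-like, Sema5b and Sema7a in layer II-IV-like, Plxna3 and Sema3f in layer V-VI-like and Sema4f and Sema7a in subventricular zone-like cells. DESeq2 lost 7 and gave no adjusted p for Nrp1 in erythroid-like cells. The 7 were Plxnc1 and Sema6c in Cajal-Retzius-like, Plxnb1, Sema3d and Sema6a in striatal inhibitory-like, Plxnb2 in ganglionic eminence-like and Sema3g in subventricular zone-like cells. Doublet removal lost 5 (Plxnc1 and Sema6c in Cajal-Retzius-like, Sema3f in interneuron-like, Plxna3 in layer V-VI-like and Plxnb2 in ganglionic eminence-like cells). Without integration 7 were lost besides the reversal given next: Sema4d, Sema4f, Sema6b and Sema7a in subventricular zone-like, Sema6a in striatal inhibitory-like, Nrp1 in erythroid-like and Plxna3 in layer II-IV-like cells. Resolution 0.8 lost 5 (Sema6a in radial glia-like, Plxnb1, Sema6a and Sema6c in striatal inhibitory-like and Plxnb2 in ganglionic eminence-like cells) and the minimum of 3000 UMIs 2 (Sema3f in interneuron-like and Sema6a in striatal inhibitory-like cells). Sema6c in Cajal-Retzius-like cells was lost without a filter on low counts, and Sema6a in radial glia-like cells from the 2 groups alone and with the replicate block. Over all cells, at most 5% mitochondrial UMIs lost Sema3d and Sema4d in KO vs WT and Plxna4 and Sema3e in KO vs Het. Sema3d was lost with doublets removed, Sema3c without a filter on low counts, Sema4d without non-neural classes and unnamed clusters, and Plxna4 in KO vs Het with the replicate block.

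The sign turned for Sema3d (0.032) and Sema3c (-0.048) over all cells with the prefix, and for Sema6d in subventricular zone-like cells without integration (0.025). Fitted alone, an alternative chosen after seeing the data, clusters of the layer II-IV-like class turned it for Sema6d (cluster 4, -0.10), Sema3c (cluster 3, -0.21), Sema5b (cluster 11, -0.28) and Sema6a (cluster 3, -0.10, and cluster 11, -0.17). The cause was not tested. Same-numbered embryos correlated at -0.185 to 0.126. With so few embryos this cannot decide whether the numbers pair them, and the replicate block was run as an alternative only. The WT level of a member in its highest class moved by over 1 SD for 12 of 31 members at resolution 0.8, 12 without integration and 5 with doublets removed. Depth limits the low members: Plxnb3 passed the filter on low counts in 0 classes, Sema3b and Sema3g in 2 each and Sema3d in 3.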
